A study of Homo sapiens with 6 samples.

Results

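The clustered protocadherins are cell adhesion genes that lie in 3 neighbouring groups, alpha, beta and gamma, on human chromosome 5. The H3K9me3 peaks described here are those between 140.75 and 141.55 Mb of chromosome 5 (hg38), with PCDHGA1, PCDHGA2 and PCDHGA3, the first 3 genes of the gamma group, taken up 1 by 1. This window held 15 of the 14087 peaks of PURPL guide 1, 11 of the 11721 peaks of PURPL guide 2 and 42 of the 22627 peaks of the control guide, which makes 68 of 48435 peaks in all. Peaks were counted on chromosomes 1 to 22 and X. The window is set by position and not by a limit on values, but it was chosen with earlier results of these data known.

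H3K9me3, the trimethylated lysine 9 of histone H3, was measured by chromatin immunoprecipitation and sequencing in the established fibroblast line BJ, from human skin. All lines carried CRISPR interference, which silences a gene by bringing a repressor to it with a guide RNA. PURPL guide 1 and PURPL guide 2 both target PURPL, a long non-coding RNA gene, and the control guide is the control for both. Each of the 3 lines gave 1 H3K9me3 library and 1 input library, and the repressor, the timing and whether the lines are clones or pools are not stated in the sources used. With 1 library per line no difference between lines has a replicate check, so no p-value or SD is given, and the number of reads behind each list is unknown. Fewer cells with the mark and less of the mark per cell cannot be told apart.

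In the alpha and gamma groups each gene start lies before its own large variable exon, which is joined by splicing to short constant exons at the far end of the group. All members of such a group therefore end at the same place, and their annotated bodies overlap. Beta genes are single units that share no constant exon. Many of the promoters, though not all, are chosen or silenced on their own in neurons, so that a neuron shows its own set of these adhesion proteins. DNA methylation, H3K9 methylation and the insulator protein CTCF are known to take part in this choice. Most promoters of the cluster hold a conserved sequence element with the core CGCT.

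The sequences just before PCDHGA1, PCDHGA2 and PCDHGA3 show what these promoters share, and that of PCDHGA8 is shown because peak edges of the PURPL guide 2 and control guide lists meet there. Each run holds the 250 bases before the gene start, 5′ to 3′, from RefSeq on GRCh38.p14, whose chromosome coordinates are those of hg38. Capitals mark CGCTGTT, a run that contains the CGCT core and that was chosen after these sequences had been read.
PCDHGA1, chr5:141330264-141330513, plus strand: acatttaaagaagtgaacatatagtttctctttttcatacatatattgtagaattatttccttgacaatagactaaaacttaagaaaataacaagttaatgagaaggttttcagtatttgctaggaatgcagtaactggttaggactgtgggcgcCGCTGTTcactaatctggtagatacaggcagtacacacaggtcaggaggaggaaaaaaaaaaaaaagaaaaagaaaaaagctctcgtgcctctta
PCDHGA2, chr5:141338510-141338759, plus strand: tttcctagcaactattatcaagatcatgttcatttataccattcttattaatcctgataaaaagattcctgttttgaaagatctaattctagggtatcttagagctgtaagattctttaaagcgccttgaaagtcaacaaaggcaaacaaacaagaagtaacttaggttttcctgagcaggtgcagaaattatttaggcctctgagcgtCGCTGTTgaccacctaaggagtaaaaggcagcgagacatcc
PCDHGA3, chr5:141343579-141343828, plus strand: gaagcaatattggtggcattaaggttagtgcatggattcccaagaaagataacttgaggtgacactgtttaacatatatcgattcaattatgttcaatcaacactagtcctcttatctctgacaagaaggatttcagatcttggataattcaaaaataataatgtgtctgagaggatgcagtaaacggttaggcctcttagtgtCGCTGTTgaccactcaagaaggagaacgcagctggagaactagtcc
PCDHGA8, chr5:141392383-141392632, plus strand: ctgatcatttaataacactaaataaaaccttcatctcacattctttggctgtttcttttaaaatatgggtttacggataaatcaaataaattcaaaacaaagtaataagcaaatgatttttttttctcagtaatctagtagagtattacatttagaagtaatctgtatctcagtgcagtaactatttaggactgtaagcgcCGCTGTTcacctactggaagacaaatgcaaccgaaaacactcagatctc
In this strand CGCTGTT begins 95 bases before the start of PCDHGA1, 41 before PCDHGA2, 46 before PCDHGA3 and 49 before PCDHGA8. RefSeq promoter windows (250 bases before to 50 after a gene start) were at hand for 20 of the 22 gamma genes, and 13 of these 20 hold CGCTGTT on the gene strand, with no further gene when both strands were searched. The run was found on the gene strand in 1 of 14 beta genes, 0 of 13 alpha genes and 1.20% of all 34961 windows, and on either strand in 2.26% of all windows. The bare core CGCT stands on the gene strand in 20 of 20 gamma, 14 of 14 beta and 12 of 13 alpha genes, against 54.4% of all windows (70.1% on either strand). PCDHGA2 was the only gene of the 13 with its CGCTGTT under a peak, a control guide peak.

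H3K9me3 peaks covered far less of the cluster with either PURPL guide than with the control guide. Counting each base once, peaks covered 16.4 kb of the window with PURPL guide 1, 6.78 kb with PURPL guide 2 and 70.6 kb with the control guide. PURPL guide 1 had 23.3% and PURPL guide 2 had 9.61% of the control length. The numbers of peaks were 35.7% and 26.2% of the control number. These number shares depend on how peaks are counted: they were 84.6% and 61.5% with peaks within 5000 bp merged, and 72.7% and 27.3% with a score limit of 22. The median peak width was 776 bp with PURPL guide 1, 395 bp with PURPL guide 2 and 1112 bp with the control guide. The widest peak measured 4579, 2454 and 10627 bp in the same order.

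**Figure D1:**
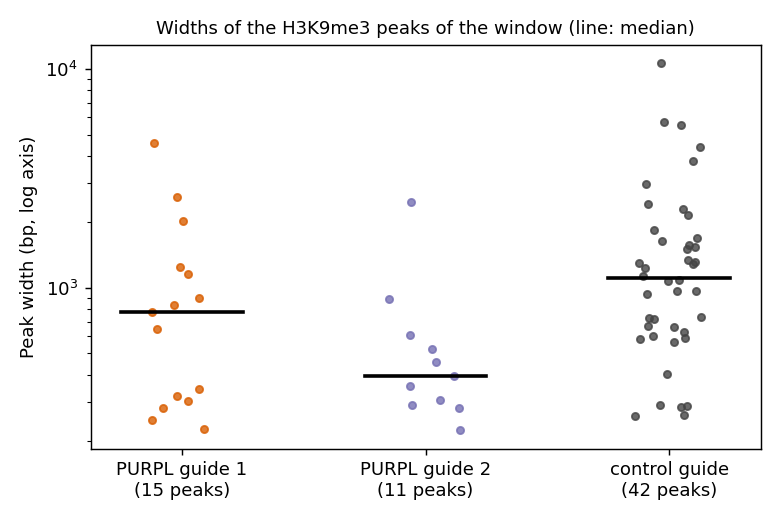
Width in bp (log axis) of each H3K9me3 peak of the window, 1 point per peak and 1 library per column, with a line at the median. The 3 control guide peaks over 5000 bp have no counterpart of that width with either PURPL guide, and the medians are 776, 395 and 1112 bp.

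The score is the authors' own value per peak, on a scale that is not named. It is used here to rank peaks within a list, and as a score limit that was the same for every list. Whether equal scores mean the same in each library was not checked, so results with the score limit rest on that assumption. None of the cluster's peaks ranked first in its list. The highest stood at or above 83.5% of the PURPL guide 1 peaks, 63.5% of the PURPL guide 2 peaks and 79.0% of the control guide peaks. In PURPL guide 1 that was a narrow peak of 321 bp in the interval of PCDHGB5, and in the control guide it was a peak of 1297 bp across the end of PCDHB10, a beta adhesion gene. The PCDHB10 peak lay 35768 bp from the nearest PURPL guide 1 peak and 32453 bp from the nearest PURPL guide 2 peak.

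Coverage was uneven along the cluster. The alpha group, 15 coding genes over 226208 bp, had 0 covered bases in all 3 lists. The stretch without a peak that holds the alpha group ran over 465.5 kb with PURPL guide 1, 479.1 kb with PURPL guide 2 (from the edge of the window) and 355.2 kb with the control guide. The beta group had 528 bp with PURPL guide 1, 635 bp with PURPL guide 2 and 9449 bp with the control guide. The gamma group had 4666, 921 and 22551 bp, so the lengths with PURPL guide 1 and PURPL guide 2 were 20.7% and 4.08% of control. Such shares compare lengths and do not say that the same bases were covered. Of the gamma bases, 3354 bp with PURPL guide 1 and 0 bp with PURPL guide 2 lay under control guide peaks. The longest coverage lay in neither group but in the 81148 bp between the beta and gamma genes, with 10191, 5225 and 35127 bp.

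**Figure D2:**
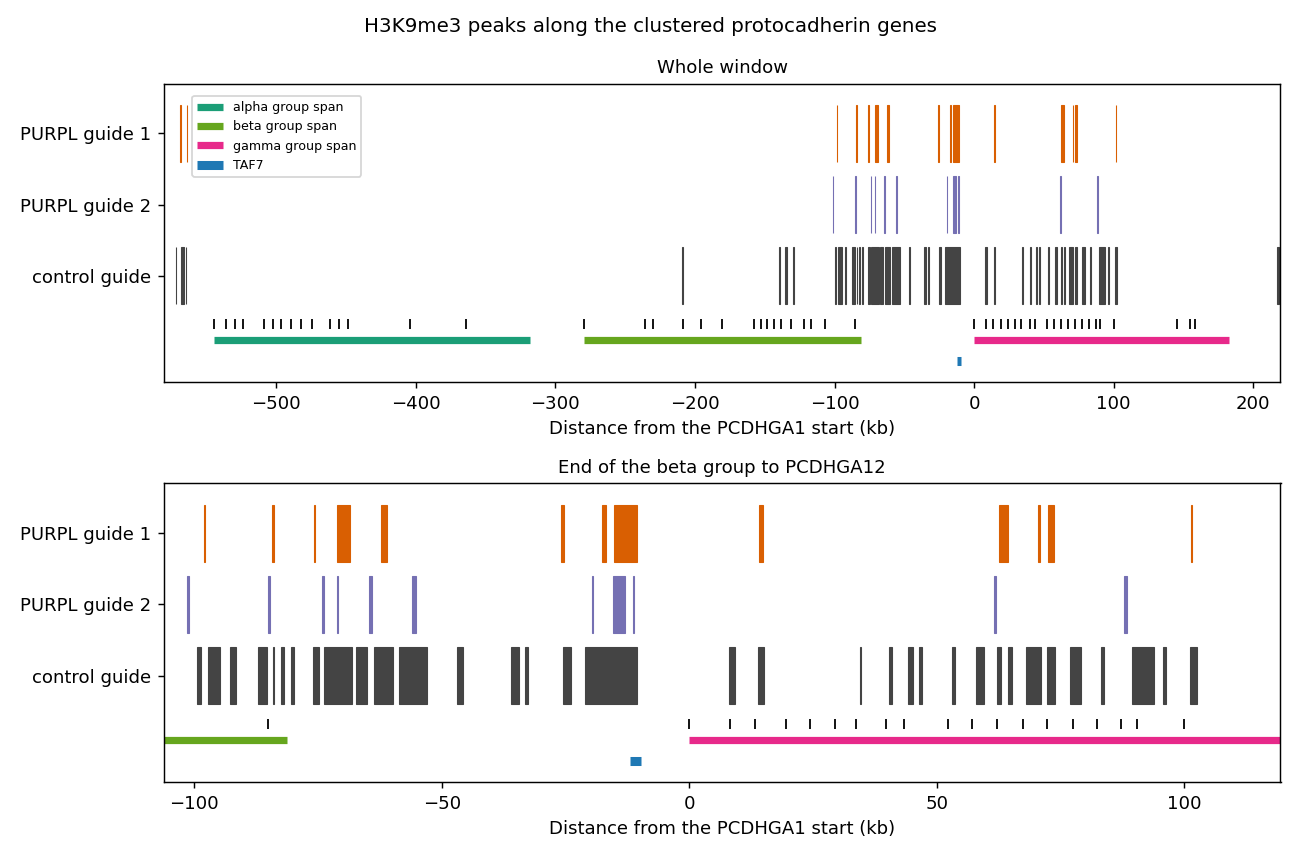
Position of every H3K9me3 peak (coloured blocks, 1 row per list) against the distance from the PCDHGA1 start in kb, for the whole window (top) and from the end of the beta group to PCDHGA12 (bottom). Black ticks are starts of coding protocadherin genes and coloured bars are the spans of the 3 groups and TAF7. The alpha group has no peak in any list, and the densest blocks stand between the beta and gamma groups.

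This stretch between the groups made up 62.0% of the cluster's covered length with PURPL guide 1, 77.1% with PURPL guide 2 and 49.8% with the control guide. Within it the covered length was 29.0% of the control length with PURPL guide 1 and 14.9% with PURPL guide 2. TAF7, which encodes a subunit of the general transcription factor TFIID, lies here and had 1481 bp under peaks with PURPL guide 1, 292 bp with PURPL guide 2 and 1568 bp with the control guide, out of 2295 bp. TAF7 thus differed little between PURPL guide 1 and the control guide in covered length, while PURPL guide 2 had the shortest coverage. The widest control peak, at 141309431 to 141320057, covered 1568 of the 2295 bp of TAF7 and ran on from it to lower coordinates. SLC25A2, a mitochondrial amino acid carrier gene in the same stretch, had 0 bases in all 3 lists. The non-coding gene LOC105378199 had 2334, 607 and 6329 bp of its 8535 bp under peaks with PURPL guide 1, PURPL guide 2 and the control guide. The pseudogene LOC100419552, which overlaps its edge, had 911, 307 and 1067 bp in the same order, the last being its whole length.

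The only bases that all 3 lists covered lay in this stretch. They amounted to 2645 bp in 3 pieces, at 141259391 to 141259577, 141315392 to 141317557 and 141319100 to 141319391, the last inside TAF7. Within the gamma group the lists of PURPL guide 1 and PURPL guide 2 had 0 bases in common.

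In the beta group, most control guide bases under peaks lay outside the coding gene bodies, as does most of the span. The coding bodies make up 65325 of its 197992 bp, the pseudogenes 11109 bp and the rest 121558 bp. The 16 coding bodies held 303 bp with PURPL guide 1, 354 bp with PURPL guide 2 and 1850 bp with the control guide. The 3 pseudogenes of the group held 0, 0 and 2844 bp, of which PCDHB18P had 1428 bp and PCDHB19P 1416 bp in the control guide. The remaining bases of the span held 225, 281 and 4755 bp. PCDHB15, the last beta gene, had 303 bp with PURPL guide 1, 354 bp with PURPL guide 2 and 876 bp with the control guide, and the peaks of the 2 PURPL guides in it did not overlap each other. PCDHB4 (93 bp), PCDHB9 (292 bp), PCDHB10 (304 bp) and PCDHB11 (285 bp) were covered in the control guide list and had 0 bases with both PURPL guides.

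PCDHGA1, PCDHGA2 and PCDHGA3 encode gamma adhesion proteins of the A type. PCDHGA1 (gene ID 56114, chromosome 5, 141330514 to 141512975) had 4666 bp under peaks with PURPL guide 1, 921 bp with PURPL guide 2 and 22551 bp with the control guide. The same 4666 and 921 bp counted for PCDHGA2 (gene ID 56113, from 141338760) and PCDHGA3 (gene ID 56112, from 141343829), against 22400 and 21475 bp in the control guide. These are not 3 separate observations, because the bases all 3 bodies share make up 92.7% of PCDHGA1. By control covered length the 3 genes ranked 29, 30 and 33 among 2610 coding genes with a control peak.

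Each of the 3 had at most 50% of its control length with either PURPL guide. Among all 2610 control-marked coding genes this held for 81.7% with PURPL guide 1 and for 93.8% with PURPL guide 2, so the 3 genes did what most marked genes did. Such shares count only genes covered in the control guide, a choice that itself favours lower values with the PURPL guides. A closer background is the 133 coding genes outside the window with at least 10000 control bases under peaks. In these the median ratio to the control length was 46.9% with PURPL guide 1 (quartiles 34.5 and 59.9) and 16.4% with PURPL guide 2 (quartiles 6.99 and 26.4). PCDHGA1, at 20.7% and 4.08%, stood low in this range. With PURPL guide 1, 12 of the 133 were at or below its share, with PURPL guide 2 20 of the 133, and with both 8. The 5 genes with the nearest pair of shares (Euclidean distance in percentage points, over the 2 guides) were ZSCAN18 (21.3% and 3.69%), ZNF566 (18.1% and 5.71%), ZNF678 (21.5% and 7.26%), DENND1A (20.5% and 0%) and ZNF883 (20.3% and 0%).

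Because the bodies overlap, the bases from each gamma gene start to the next were counted by themselves. This gives 22 intervals that share no base, each beginning at the start of 1 gene. The interval of PCDHGA1 had 0 bp with PURPL guide 1, 0 bp with PURPL guide 2 and 151 bp with the control guide, and those 151 bp are the edge of the peak at PCDHGA2. The interval of PCDHGA2 had 0, 0 and 925 bp. The interval of PCDHGA3 had 836, 0 and 1135 bp, so PURPL guide 1 had 73.7% of the control length there. Nearly all coverage counted for PCDHGA1 and PCDHGA2 as gene bodies therefore lies in the intervals of other gamma genes.

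**Figure D3:**
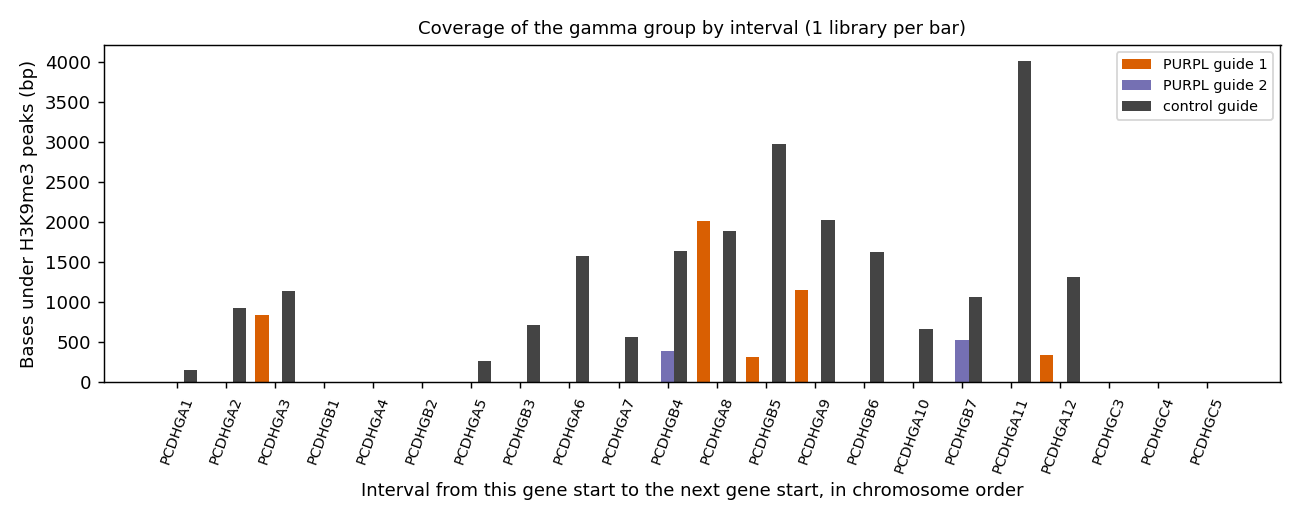
Bases under H3K9me3 peaks (bp) in each of the 22 intervals of the gamma group, in chromosome order, 1 bar per list. Control guide bars are present in 16 intervals, PURPL guide 1 bars in 5 and PURPL guide 2 bars in 2, and the last 3 intervals (PCDHGC3, PCDHGC4 and PCDHGC5) have none.

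Of the 22 intervals, 5 had a base under a peak with PURPL guide 1, 2 with PURPL guide 2 and 16 with the control guide. Of these 16, 9 had 0 bases with both PURPL guides, and 0 bases with both were also common among the 2610 control-marked coding genes, at 52.5%, counted there over whole gene bodies rather than intervals. Both counts take only what the control guide covered. PCDHGA11 held the longest control coverage, 4014 bp, and had 0 bp with either PURPL guide. PCDHGB5 followed, with 321 bp with PURPL guide 1, 0 bp with PURPL guide 2 and 2978 bp with the control guide. PCDHGA9 had 1154, 0 and 2031 bp in the same order. PCDHGA8 was the only interval longer in a PURPL guide than in the control guide, with 2012, 0 and 1893 bp, where 1 PURPL guide 1 peak spanned the gap between 2 control peaks.

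PCDHGA12 had 343 bp with PURPL guide 1, 0 bp with PURPL guide 2 and 1311 bp with the control guide. PURPL guide 2 had bases only in the intervals of PCDHGB4, with 0, 395 and 1645 bp, and PCDHGB7, with 0, 526 and 1065 bp (PURPL guide 1, PURPL guide 2, control guide). The 1065 bp at PCDHGB7 are the edge of the control guide peak at PCDHGA11. In both intervals the PURPL guide 2 peak overlapped no control guide peak. Neither PURPL guide covered any base of the intervals with control guide coverage at PCDHGB6 (1622 bp), PCDHGA6 (1573 bp), PCDHGB3 (721 bp), PCDHGA10 (661 bp), PCDHGA7 (563 bp) and PCDHGA5 (263 bp). PCDHGB1, PCDHGA4 and PCDHGB2, between PCDHGA3 and PCDHGA5, had 0 bp in all 3 lists, as had the C-type genes PCDHGC3, PCDHGC4 and PCDHGC5 at the far end.

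A-type and B-type genes are interspersed along the group. The 12 A-type intervals held 4345 bp with PURPL guide 1, 0 bp with PURPL guide 2 and 14520 bp with the control guide. The 7 B-type intervals held 321, 921 and 8031 bp. PURPL guide 1 thus had 29.9% of the control length in A-type intervals and 4.00% in B-type intervals, while PURPL guide 2 had 0% and 11.5%. These shares rest on 5 peaks with PURPL guide 1 and 2 peaks with PURPL guide 2, and the difference between the types was not tested. The PURPL guide 2 peak counted at PCDHGB4 ends just before the start of the A-type gene PCDHGA8 and covers 190 bases of its promoter window, so its type is set by the edge of the interval.

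Within the gamma group the peaks stood close behind gene starts. The centre of 4 of 5 PURPL guide 1 peaks, 1 of 2 PURPL guide 2 peaks and 14 of 17 control guide peaks lay within 2500 bp after the start of its interval. The first 2500 bp of the intervals make up 30.1% of the group's length. They held 93.1% of the covered length with PURPL guide 1, 57.1% with PURPL guide 2 and 74.9% with the control guide. The 30.1% is lowered by the long PCDHGA12 interval (45459 bp) and by the C-type intervals (37010 bp), which hold no peak. In the 7 B-type intervals the first 2500 bp make up 56.7% of the length and held 74.2% of the control guide coverage. In the 12 A-type intervals, PCDHGA12 included, these values were 26.2% and 75.2%. The median control peak centre lay 1224 bp behind its gene start, and at PCDHGA3 the PURPL guide 1 peak (742 to 1577 bp behind the start) lay inside the control guide peak (657 to 1791 bp). The gene table has no exons, so whether these bases are exonic was not read from an annotation.

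**Figure D4:**
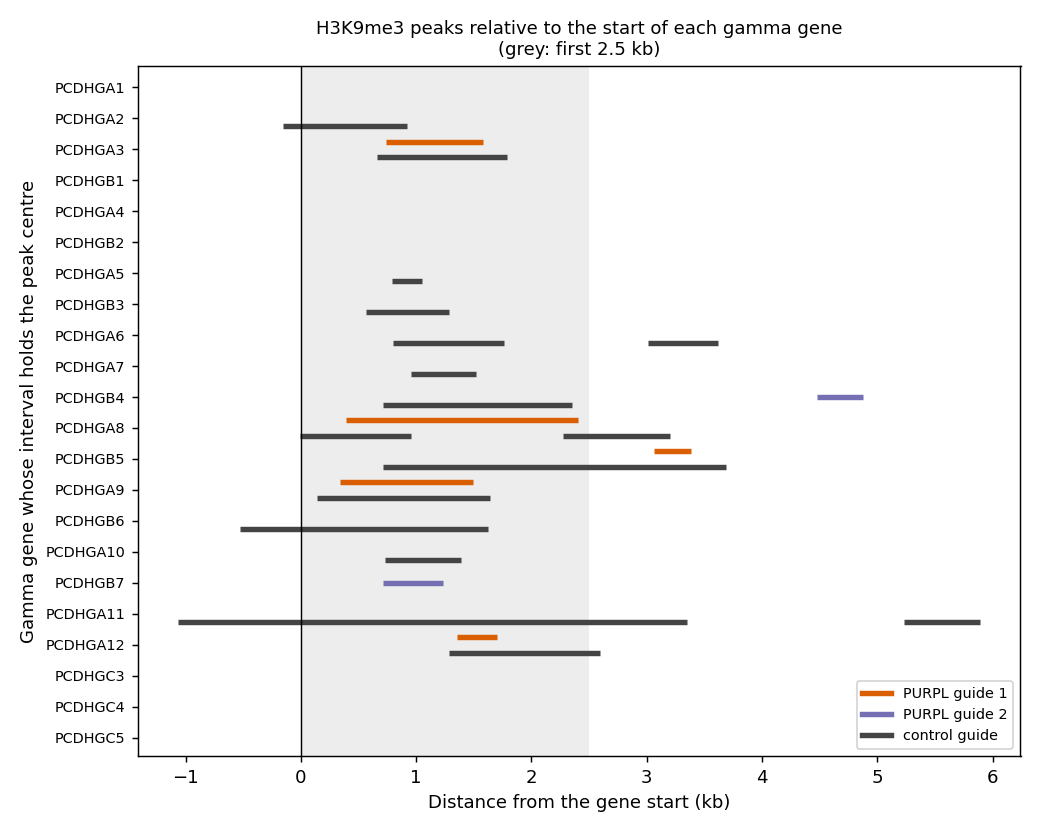
Extent of each gamma group peak as distance in kb from the start of the gene whose interval holds the peak centre, 1 row per gene and 1 colour per list. The grey band is the first 2.5 kb, which holds the centre of 14 of 17 control guide peaks. The PURPL guide 1 peaks lie over control guide peaks, and the 2 PURPL guide 2 peaks do not.

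Peaks over the promoter windows themselves were fewer. Of 20 gamma genes with a window, 0 were touched by a peak with PURPL guide 1, 1 with PURPL guide 2 (PCDHGA8) and 4 with the control guide (PCDHGA2, PCDHGA8, PCDHGA11 and PCDHGB6). Over all RefSeq windows 0.0772% were touched with PURPL guide 1, 0.0372% with PURPL guide 2 and 0.14% with the control guide. In the alpha group 0 of 13 genes were touched in any list, and in the beta group 0 of 14 with PURPL guide 1, 1 with PURPL guide 2 (PCDHB15) and 2 with the control guide (PCDHB4 and PCDHB15). Of the 250 printed bases at PCDHGA2 the control guide peak covered the last 151, its CGCTGTT included. At PCDHGA8 a PURPL guide 2 peak covered 190 of the printed bases and a control guide peak the last 9, and CGCTGTT lay in the 52 bp step between the 2 peaks. The median GC content of the 25 gamma windows was 47.3%, against 58.7% over all windows, and that of the alpha and beta windows was 37.3% and 40.8%. Some gamma genes have more than 1 overlapping window and no alpha or beta gene has, so the gamma value is not a median over genes.

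Few control guide peaks of the cluster carried a PURPL guide 2 peak. Of the 42 control guide peaks, 13 were overlapped by a PURPL guide 1 peak by at least 1 bp (31.0%, 95% Wilson interval 19.1 to 46.0) and 3 by a PURPL guide 2 peak (7.14%, 2.46 to 19.01). Over chromosomes 1 to 22 and X these shares were 42.8% with PURPL guide 1 and 36.2% with PURPL guide 2. Overlap within coding gene bodies alone was not counted. Covered length over those bodies was 36.7% of control with PURPL guide 1 and 14.3% with PURPL guide 2. Over the chromosomes it was 52.4% and 40.3%, so the chromosomes are a high background for a cluster of genes. Within the gamma group 6 of 17 control guide peaks were overlapped with PURPL guide 1 and 0 of 17 with PURPL guide 2 (Wilson interval 0 to 18.4). In the other direction all 5 gamma peaks of PURPL guide 1 and neither of the 2 of PURPL guide 2 lay on a control guide peak. The PURPL guide 2 peaks lay 52 bp and 1075 bp from the nearest control guide peak. The intervals cover counting error only and treat neighbouring peaks of 1 library as separate. The difference between the cluster and the chromosomes was not tested.

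The sequence on either side of the cluster held almost no peaks. Windows of the same length before and after it had 0 and 0 bp with PURPL guide 1, 0 and 0 bp with PURPL guide 2, and 0 and 1775 bp with the control guide. A zinc finger window of the same length on chromosome 19 (36.9 to 37.7 Mb), another array of related genes with the mark, had 121 kb with PURPL guide 1, 40.5 kb with PURPL guide 2 and 289.0 kb with the control guide. There 42.0% of the control length was left with PURPL guide 1, against 23.3% in the protocadherin window and 36.7% over all coding gene bodies. With PURPL guide 2 the protocadherin window kept 9.61% and all coding gene bodies 14.3%. Over chromosomes 1 to 22 and X 52.4% was left with PURPL guide 1 and 40.3% with PURPL guide 2. Peak number differed more than length between these windows with PURPL guide 1, which had 92.8% of the control number in the zinc finger window and 35.7% in the protocadherin window. The latter share was 84.6% with peaks within 5000 bp merged and 72.7% with a score limit of 22. The zinc finger window was not recounted in these ways, so the contrast in number may depend on how peaks are counted. With 1 library per line these differences were not tested.

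**Figure D5:**
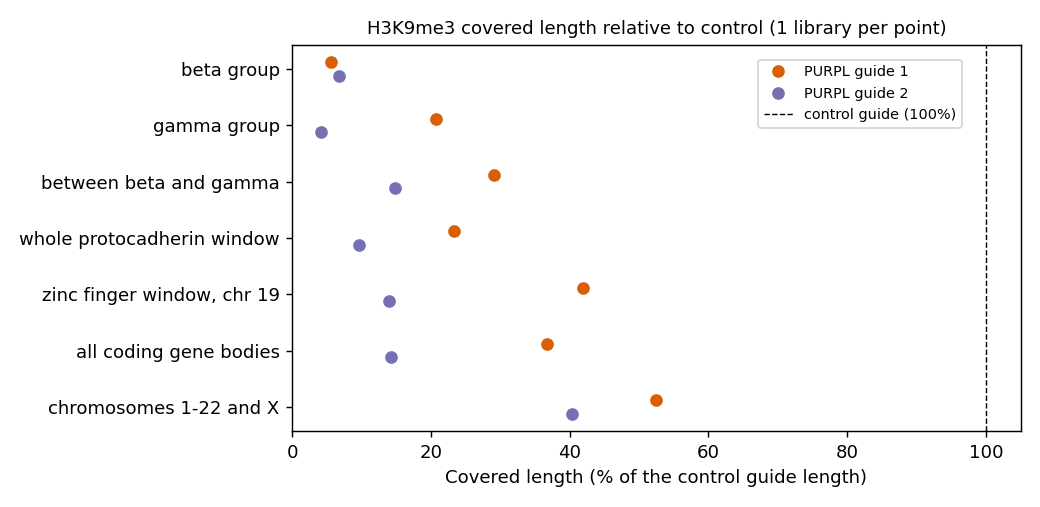
Covered length of each PURPL guide as a percentage of the control guide length, 1 point per library, for parts of the protocadherin window and for comparison regions. All points lie below 100%, and in the gamma group they lie at 20.7% with PURPL guide 1 and 4.08% with PURPL guide 2.

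Marked members of the 3 protocadherin groups, counted by gene body, numbered 0 alpha, 1 beta and 19 gamma genes with PURPL guide 1, 0, 1 and 17 with PURPL guide 2, and 0, 5 and 19 with the control guide. The share of all coding genes marked was 6.55% with PURPL guide 1, 3.73% with PURPL guide 2 and 13.1% with the control guide. The gamma counts are not independent, since 1 peak at PCDHGA12 lies in 19 overlapping bodies. Among 22 non-clustered protocadherins and large cadherins, which do not share exons, 1 was marked with PURPL guide 1, 1 with PURPL guide 2 and 2 with the control guide. FAT1 had 0, 0 and 962 bp, CELSR1 285, 0 and 837 bp, and PCDH15 0, 245 and 0 bp (PURPL guide 1, PURPL guide 2, control guide). Among 19 classical cadherins 3, 1 and 3 were marked in the same order, and CDH13 had 678 bp with PURPL guide 1, 3011 bp with PURPL guide 2 and 2586 bp with the control guide. CDH8 had 0, 0 and 1115 bp and CDH19 0, 0 and 229 bp, while CDH18 had 225, 0 and 0 bp and CDH4 282, 0 and 0 bp.

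Genes whose products act on the chromatin of this cluster or belong to the same complexes were also looked up. Of 23 such genes, 4 were marked with PURPL guide 1, 1 with PURPL guide 2 and 7 with the control guide. The shares of all coding genes marked were 6.55%, 3.73% and 13.1% in the same order. All 7 were shorter with both PURPL guides, as were 92.6% of all control-marked coding genes. Both counts keep only genes covered in the control guide, which itself favours shorter coverage with the PURPL guides. STAG1, a cohesin subunit, had 3430 bp with PURPL guide 1, 1969 bp with PURPL guide 2 and 7543 bp with the control guide. ATF7IP, a partner of the H3K9 methyltransferase SETDB1, had 1351, 0 and 7395 bp. SMCHD1, a chromatin protein known to repress clustered protocadherins in mice, had 0, 0 and 969 bp, and LRIF1, its partner, had 0, 0 and 887 bp. SETDB1 itself had 232, 0 and 863 bp. EHMT1 had 570, 0 and 602 bp, so it differed little between PURPL guide 1 and the control guide, and DNMT3A had 0, 0 and 316 bp. The series holds no RNA, so neither expression of these genes nor the fibroblast label was checked by transcripts. Of 13 fibroblast marker genes 0 were marked with PURPL guide 1, 0 with PURPL guide 2 and 3 with the control guide (DCN, PDGFRA and COL1A2). The shares of all coding genes given above apply here too.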

How the data were processed

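The deposited files are peak lists, 1 per H3K9me3 library, each named as the library against the input of the same line. The submitters' processing notes list deepTools 3.5.1, MACS2 2.2.9.1, GATK and Bowtie2 2.4.2, and name GRCh38.p13 and hg38 as builds. Peak-calling settings are not given here. The deposited score is a whole number of at least 10 per peak. The peaks are named after other guide numbers than the samples, and lists were assigned by the sample titles. Read depth is unknown, and no value is corrected for it.

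Covered length counts each base under a peak once. Gene bodies and promoter sequences came from RefSeq tables for GRCh38.p14. Peaks off chromosomes 1 to 22 and X (4.27% of PURPL guide 1, 3.85% of PURPL guide 2 and 4.34% of control guide peaks) were not used. Named genes are PCDHGA1 to PCDHGA3, every gamma gene, every other gene of the window with a peak, up to 5 members per list with the longest control coverage, and the 5 genes most like PCDHGA1. SLC25A2, PCDH15, CDH4 and CDH18 have no control coverage and are named after their values were seen. EHMT1 and DNMT3A were also added after their values were seen. The members, lists and region choices were made with earlier results of these data known. Alternatives were a score limit, merging, a width limit, other gene bounds and other overlap rules. Coverage and merging were tested on simulated intervals. Scripts ran in Python 3.11.15 with matplotlib 3.10.9, scipy 1.17.1, pandas 2.3.3 and numpy 2.4.6.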

Additional observations from a re-analysis of the deposited data

How the results depend on the processing

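Both PURPL guides stayed below the control guide in every covered length and peak number of the window, the beta group, the gamma group and the 3 PCDHGA genes under each alternative where the control guide was covered, and the alpha group stayed at 0 bp. With a score limit of 22, the median of the 3 lists pooled, the window had 3042 bp with PURPL guide 2 and 34355 bp with the control guide, in 8, 3 and 11 peaks (PURPL guide 1, PURPL guide 2, control guide), so PURPL guide 1 had 72.7% of the control number. The gamma group and each PCDHGA gene then had 1157, 0 and 6117 bp, and the beta group 0, 281 and 4799 bp. With peaks within 5000 bp merged, the window had 28170, 14805 and 143917 bp in 11, 8 and 13 peaks, so the peak numbers were 84.6% and 61.5% of control, and the control guide had 29352 bp in the beta group, 57773 bp in the gamma group and in PCDHGA1, 57622 bp in PCDHGA2 and 52553 bp in PCDHGA3. With peaks of at least 500 bp only, PURPL guide 2 had 4473 bp in the window and 526 bp in the gamma group and each PCDHGA gene, and the beta group had 0 bp with both PURPL guides. Counted from the gene start to the next start, PCDHGA1 had 0, 0 and 151 bp, PCDHGA2 0, 0 and 925 bp, and PCDHGA3 836, 0 and 1135 bp. The share of control peaks overlapped was 11.9% with PURPL guide 1 and 0% with PURPL guide 2 when guide peaks had to cover 50% of a control peak, and 61.9% and 42.9% when a guide peak within 5000 bp counted. With the score limit it was 36.4% and 18.2% (4 and 2 of 11 control peaks, Wilson intervals 15.2 to 64.6 and 5.14 to 47.7). With 1500 or 3500 bp in place of 2500 bp behind gene starts, a choice added after the data were seen, each share of gamma coverage stayed within 1.5 times its value. No paired analysis was possible because each line has 1 H3K9me3 library. Depth is unknown, so a shorter list cannot be told apart from a shallower library.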

Other observations

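At the edges of the window, peaks stood outside the protocadherin genes. Before the alpha group PURPL guide 1 had 1058 bp, PURPL guide 2 0 bp and the control guide 2233 bp. The pseudogene LOC100421074 there had 0, 0 and 4 bp in the same order. DIAPH1, a regulator of actin filaments just behind the gamma group, had 0 bp with PURPL guide 1, 0 bp with PURPL guide 2 and 1232 bp with the control guide. PCDHGB8P, a pseudogene between PCDHGA11 and PCDHGA12, had 0, 0 and 660 bp of its 1973 bp under peaks in the same order.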
